A study of Mus musculus with 8 samples.

Results

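All 3 endothelin ligand genes of the mouse, Edn1, Edn2 and Edn3, were named at regions where trimethylation of histone H3 at lysine 27 (H3K27me3) differed between jejunal crypt epithelium lacking the demethylase genes Kdm6a and Kdm6b and control epithelium. Regions were taken from the authors' deposited table of the comparison, which lists 378 regions. Of these, 4 name an endothelin ligand gene as overlapping or flanking, and 1 further region lies within 100 kb of those 4. The genes were therefore chosen by the same comparison that is described here, and no value below is a test of them.

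The samples were 4 control and 4 double knockout (DKO) preparations of intestinal epithelial cells from the jejunum of female mice, taken 7 days after ablation. The controls are labelled Control/WT and the DKO samples Kdm6a/Kdm6b knockout. The strain, the age, the promoter driving the deletion and whether each sample was 1 animal are stated in none of the sources used here. Values per sample are lacking from the table. The 8 libraries therefore cannot be shown one by one, their depth is unknown, and the fold changes come without standard errors or replicate spread. The authors' p-values set the difference between the groups against the spread between these samples, which may be technical in part. The identity of the cells could not be checked against markers either, because the table lists only changed regions.

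Endothelins are short peptides cut from longer precursors by proprotein convertases and endothelin-converting enzymes. They act on the G protein-coupled receptors EDNRA and EDNRB, best known for vasoconstriction and for the guidance of neural crest cells. Edn1 is the ligand of vascular endothelium, Edn2, first described in the mouse as vasoactive intestinal contractor, is expressed in gut epithelium, and Edn3 acts through EDNRB in the development of the enteric nervous system and of melanocytes. H3K27me3 is laid down by Polycomb repressive complex 2 at silent genes, and KDM6A (UTX) and KDM6B (JMJD3) remove it.

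The promoter of each gene lay inside the changed region named for it, so the 250 bases before each RefSeq start (GRCm38.p6, the same assembly as the mm10 of the labels) are shown, 5′ to 3′ on the plus strand, on which all 3 genes lie. Capitals mark CpG dinucleotides, which are dense at many Polycomb targets.
Edn1, chr13:42301226-42301475: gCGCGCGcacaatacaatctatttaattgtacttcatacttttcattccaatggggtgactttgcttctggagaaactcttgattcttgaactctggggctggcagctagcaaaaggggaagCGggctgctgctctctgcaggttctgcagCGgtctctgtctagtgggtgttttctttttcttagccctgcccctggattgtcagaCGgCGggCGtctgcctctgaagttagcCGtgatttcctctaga
Edn2, chr4:120160956-120161205: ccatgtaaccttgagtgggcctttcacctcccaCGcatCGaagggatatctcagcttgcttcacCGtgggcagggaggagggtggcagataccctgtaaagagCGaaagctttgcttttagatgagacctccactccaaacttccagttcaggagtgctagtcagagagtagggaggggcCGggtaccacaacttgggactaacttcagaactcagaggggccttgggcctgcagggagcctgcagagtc
Edn3, chr2:174760369-174760618: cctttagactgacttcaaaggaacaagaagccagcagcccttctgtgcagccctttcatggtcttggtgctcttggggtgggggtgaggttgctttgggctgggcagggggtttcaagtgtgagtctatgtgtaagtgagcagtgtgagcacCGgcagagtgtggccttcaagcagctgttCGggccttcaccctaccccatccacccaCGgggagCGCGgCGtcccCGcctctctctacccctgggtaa
All 3 of these 250-base windows were intermediate in CpG content. Bases after each gene start were not counted. The Edn1 window held 9 CpG, more than 59.7% of 32841 RefSeq promoter windows of the same length. The Edn3 window held 7, more than 53.7% of them, and the Edn2 window held 5, more than 44.4%. The median promoter held 6. The GC content was 50.4% at Edn1, 55.6% at Edn2 and 59.2% at Edn3, against a median of 52.4%. The gene with the largest change in H3K27me3, Edn2, had the fewest CpG of the 3. With 3 genes, nothing is read from this pairing. Both strands were searched for 3 motifs, none of which contains another. The TATA box motif TATAAA, found in 12.4% of all promoter windows, was in none of the 3 printed here. Neither was the AP-1 motif TGACTCA, found in 4.46% of all windows. The GATA factor motif AGATAA, found in 9.99% of all windows, was absent from the 3 as well.

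**Figure D1:**
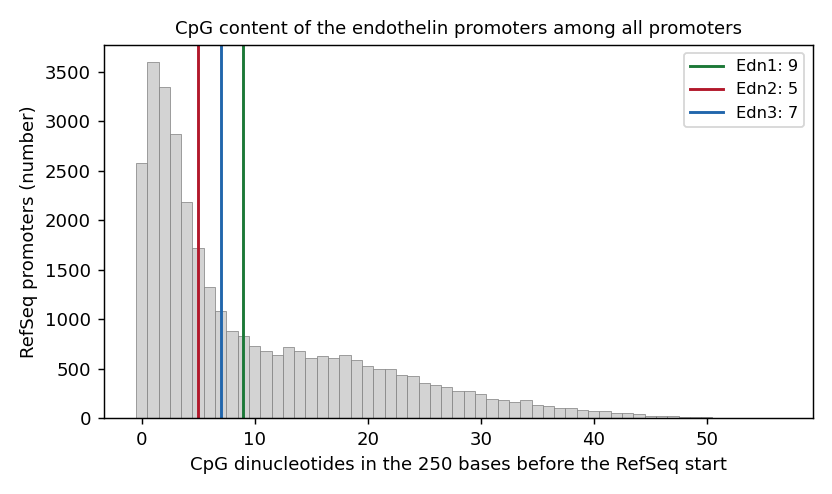
Number of RefSeq promoters (vertical axis) by the number of CpG dinucleotides in the 250 bases before the gene start (horizontal axis). Coloured lines mark Edn2 with 5, Edn3 with 7 and Edn1 with 9 CpG, around the median of 6.

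All 5 regions of the 3 loci were called up in the authors' deposited table. The reference group is not named there. Up is read here as higher H3K27me3 in DKO than in control, the usual convention, and the whole description turns over if the table was made the other way. The table's p-values and false discovery rates (FDR) imply that 58963 regions were tested. Up regions were 0.438% of these and changed regions of either direction 0.641%, and up regions at FDR 0.01, which include 2 of the 4 regions naming an endothelin gene, were 0.161%. The membership rule used this comparison, so nothing is read from the counts.

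Edn2 had the largest change of the 3 genes. The region that covers it lay at chromosome 4, 120141001 to 120172000, and the authors' deposited table gives it a log2 fold change of 1.40, or 2.65-fold (p = 5.29e-11, FDR 3.47e-07). It held the whole 6.155 kb of the RefSeq gene (120161206 to 120167360), 20.2 kb before its start and 4.64 kb beyond its end, and the table marks a promoter and an exon of Edn2 as overlapped. The region was the seventh of 258 up regions by log2 fold change and the ninth of all 378 by FDR.

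The change did not stop at the end of the gene. The next region began 3141 bp beyond it, at chromosome 4, 120170501 to 120201500. Its log2 fold change was 1.11, or 2.16-fold (FDR 5.80e-04), in the authors' deposited table, which names Edn2 as its flanking gene. The third region followed at 120200001 to 120231000, with 1.08 on the log2 scale, or 2.12-fold (FDR 0.0117), in the authors' deposited table, which names no gene for it. It begins 32.6 kb beyond the end of Edn2 and is the region found by distance alone.

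The 3 regions overlap by 1500 bp at each border and so form 1 unbroken run of 90 kb, from 120141001 to 120231000. The fold change was highest in the region that holds the gene, lower by 0.29 on the log2 scale in the second region and by a further 0.03 in the third, in the authors' deposited table. Each value is that of 1 window, whose place within its region the table does not give. With the best window in place of the representative one, the third region was at 0.94 and the other two kept their values, in the authors' deposited table. These steps have no error and were not tested. Table regions are at most 31500 bp wide, so a longer domain appears as several regions and each border here need not be a border in the chromatin.

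Around the run, the coding gene before it is Hivep3, a zinc finger transcription factor gene, whose RefSeq end lies 2.96 kb away. The authors' deposited table names Hivep3 beside Edn2 for the first region, as a flanking gene. The coding gene after the run is Foxo6, a forkhead transcription factor gene, which lies 36.1 kb beyond the end of the run. No changed region overlapped either gene. Within the run RefSeq also places the noncoding genes Gm36134, which overlaps all 3 regions, Gm36073 and Gm36013. The last 2 lie wholly inside the run. The authors' deposited table names none of them, so their part in the regions was not tested.

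**Figure D2:**
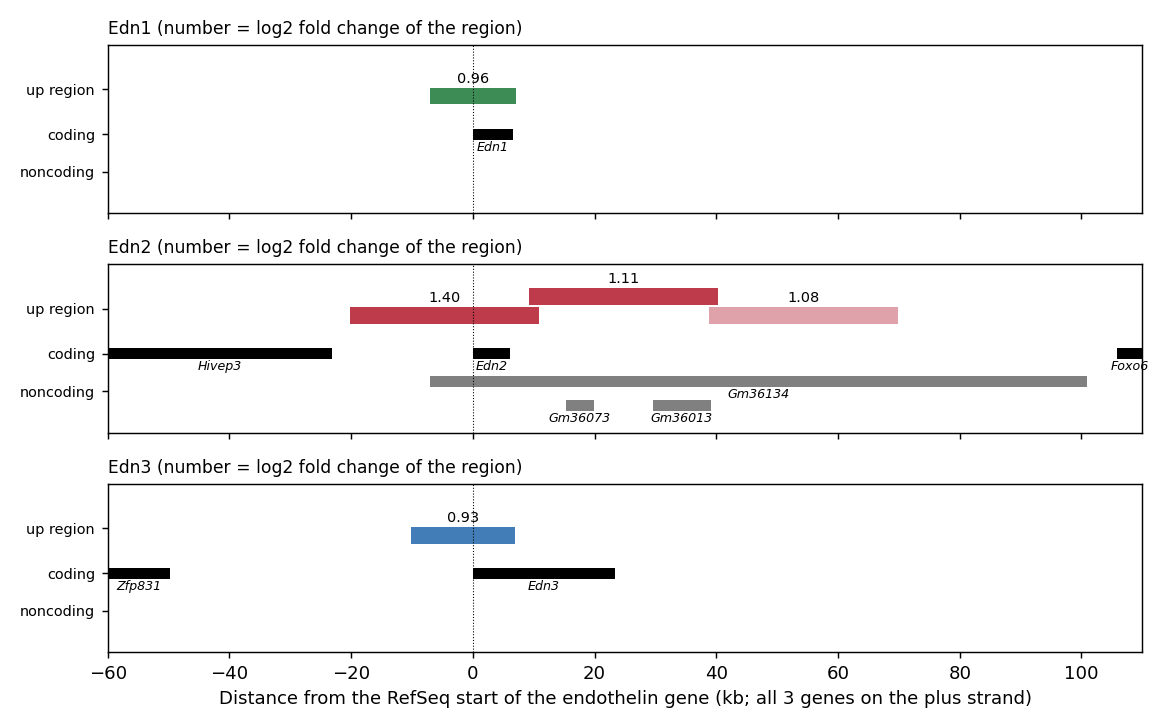
Changed regions (coloured bars, with their log2 fold change) and RefSeq genes (black coding, grey noncoding) at each endothelin gene, by distance in kb from the gene's start. The pale bar is the region named for no gene. At Edn2 the bars cover 90 kb, mostly on the 3′ side, whereas at Edn1 and Edn3 there is 1 bar over the gene start.

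The Edn1 region lay at chromosome 13, 42294501 to 42308500, and covered the whole RefSeq gene (42301476 to 42307990). It extended 6.975 kb before the gene start and 0.51 kb beyond the gene end. Its log2 fold change was 0.96 in the authors' deposited table, or 1.95-fold, at FDR 0.0461, close to the limit of 0.05 for listing. By FDR it was number 360 of 378, and the highest FDR in the authors' deposited table was 0.0498. By log2 fold change it was number 128 of 258 up regions. Its value depended on the window taken, since the best window gave 0.84 on the log2 scale (1.79-fold) in the authors' deposited table, number 250 of 258.

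The Edn3 region lay at chromosome 2, 174750501 to 174767500, and covered the first 29.4% of the RefSeq gene (174760619 to 174784042). It reached 10.1 kb before the gene start and ended 6.88 kb into the gene, and the table places the nearest further Edn3 feature 2422 bp beyond that end. The log2 fold change was 0.93 in the authors' deposited table, or 1.91-fold (FDR 0.0154), for the representative and for the best window alike. It was number 149 of 258 up regions by log2 fold change and number 139 of all 378 by FDR.

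By size of change the order was therefore Edn2, then Edn1 and Edn3 close together. In the authors' deposited table the Edn2 region stood 0.44 above the Edn1 region and 0.47 above the Edn3 region on the log2 scale. The Edn1 and Edn3 regions differed by 0.03, and with the best window their order turned, Edn1 being at 0.84 and Edn3 at 0.93. By the representative window Edn1 and Edn3 both lay near the median of all up regions, which was 0.96, but by the best window Edn1 was number 250 of 258. None of these differences carries an error, so none can be called larger than the spread between samples, and the levels of H3K27me3 at the 3 genes, as opposed to their changes, are not in the table.

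**Figure D3:**
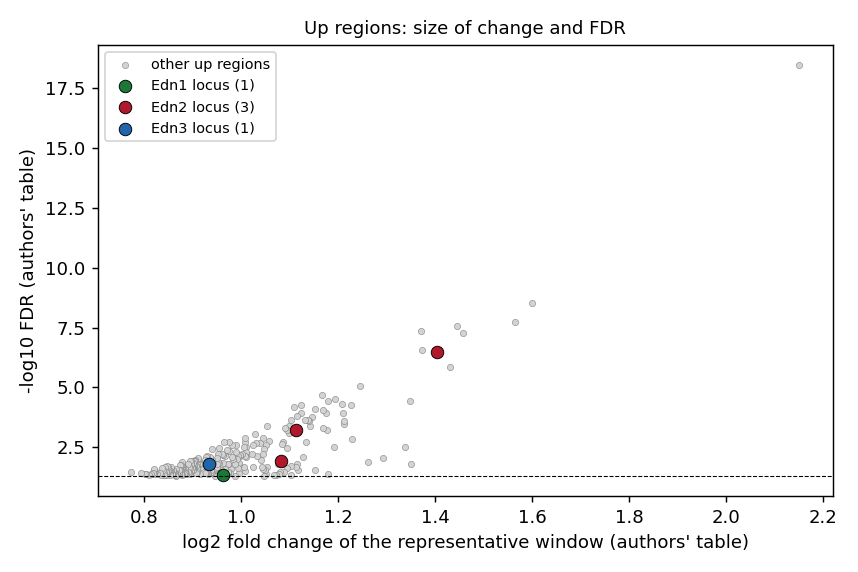
Each point is an up region, placed by the log2 fold change of its representative window (horizontal axis) and by −log10 of its FDR (vertical axis, dashed line at 0.05), both from the authors' deposited table. The region over Edn2 (red, 1.40) stands among the largest changes, and Edn1 (green, 0.96) and Edn3 (blue, 0.93) lie in the dense lower part.

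The loci also differed in how much of each region was counted as changed. The table divides each region into overlapping windows and counts those that moved up or down by a rule that no source used here states, and an uncounted window may still have changed. At the region over Edn2, 170 of 176 windows were counted as up (96.6%) in the authors' deposited table. The second region of the run had 155 of 159 (97.5%) and the third had 132 of 177 (74.6%), so that the uncounted windows rose from 6 and 4 to 45 at the far end. Over Edn3 50 of 92 windows were up (54.3%), and over Edn1 14 of 66 (21.2%), in the authors' deposited table. No window of any of the 5 regions was counted as down, and the same held for the regions closest to Edn2 in log2 fold change. The share of all up regions without a down window was not taken. The lack is therefore not read as a trait of these loci. The median share over all up regions was 72.2%, and 8.91% of up regions had a lower share than Edn1. High shares were common. Of 258 up regions, 56 had a higher share than the region over Edn2, and 53 a higher share than the second region. All windows were up in 47. Windows of 1 region overlap and share reads, so these shares have no interval.

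**Figure D4:**
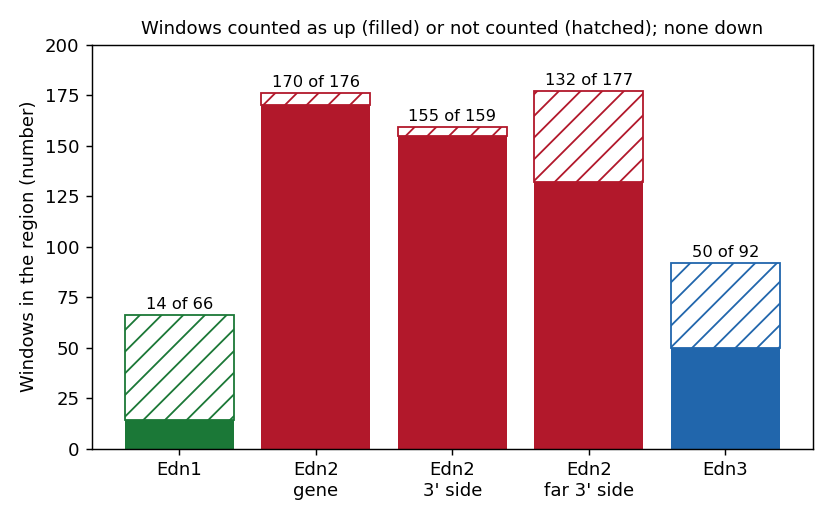
Number of windows in each region (vertical axis), with those counted as up filled and those not counted hatched; the Edn2 bars run from the gene to the far 3′ side. Nearly all windows were up over Edn2 and just beyond it (170 of 176 and 155 of 159), about as many were up as not over Edn3 (50 of 92), and few were up over Edn1 (14 of 66).

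The length of the Edn2 run was high for the table. Of 24 runs of touching regions, 21 were all up and 4 held at least 3 regions. Only touching regions were joined, so up regions parted by short gaps count as separate, shorter runs. The ranks by length hold for this rule alone. The Edn2 run was the third longest at 90 kb. The longer ones were those at Tle3, a Groucho family corepressor gene, with 116 kb, and at Sulf2, a heparan sulfate 6-O-endosulfatase gene, with 115.5 kb. The next, at Paqr5, a membrane progestin receptor gene, was 70 kb. By contrast Edn1 and Edn3 were single regions of 14 and 17 kb, near the median width of 17.25 kb for up regions.

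**Figure D5:**
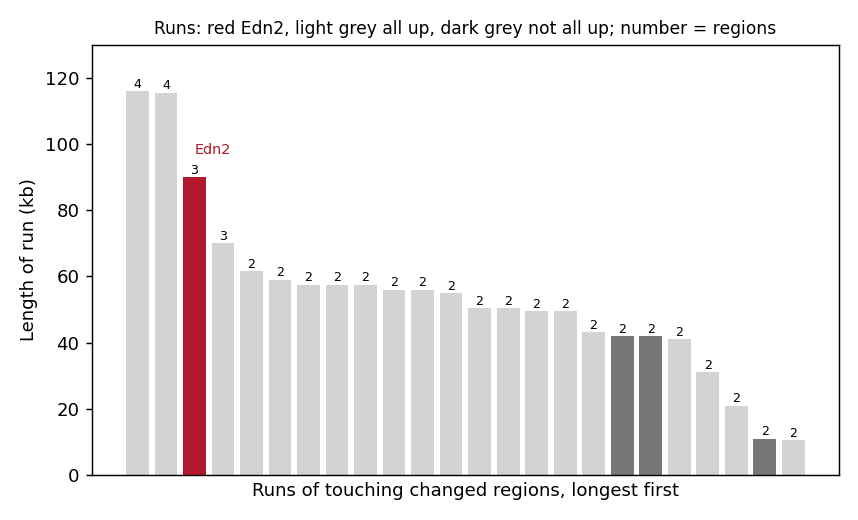
Length in kb of each run of touching changed regions, longest first, with the number of regions above each bar. The Edn2 run (red) is the third of 24, with 3 regions over 90 kb.

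No other changed region lay within 1 Mb of the 3 loci. Changed regions are sparse in the genome, with 378 listed, or 0.641% of those tested. The share of all listed regions with none other within 1 Mb was not counted. The spacing is therefore not read as a trait of these loci. The nearest to Edn3 was an up region in Pmepa1, 1.49 Mb before it, for which the authors' deposited table gives 0.88 on the log2 scale. The nearest to the Edn2 run was a down region at Macf1, 3.43 Mb after it (-0.89 in the authors' deposited table), and the nearest to Edn1 was an up region at Slc34a1, 13.1 Mb after it (0.90 in the authors' deposited table). The coding gene before each ligand encodes a zinc finger protein, and no changed region overlapped any of the 3. They are Hivep1, 109 kb before the Edn1 region, Hivep3 at Edn2, and Zfp831, 39.7 kb before the Edn3 region. The share of zinc finger genes among all coding genes was not counted, so nothing is read from the likeness. With 0.641% of tested regions changed, the lack of overlap at 3 genes is no result either.

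The regions most like the one over Edn2 were taken by the difference in log2 fold change within this 1 comparison of 8 samples. The 3 just above it in the authors' deposited table were at the amino acid transporter genes Slc6a20a and Slc6a20b (1.43), at chromosome 10, 21442501 to 21467000, with no gene named (1.44), and in Ncald, a neuronal calcium sensor gene (1.46). The 3 just below it were a further Slc6a20a region (1.37), Ihh, a hedgehog ligand of the gut epithelium (1.37), and the Serpina3a to Serpina3c protease inhibitor genes (1.35). Differences from Edn2 ran from 0.03 to 0.05 on the log2 scale. The lowest share of windows up among these 6 was 38.9% at the Serpina3 region, 63 of 162 (FDR 0.0160 in the authors' deposited table), whereas the Ncald region had all 24 up.

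The other genes of the endothelin pathway were taken as a list of 14, namely the receptors Ednra and Ednrb, the converting enzyme genes Ece1 and Ece2 and their relatives Ecel1 and Kel, the proprotein convertase gene Furin, the peptide-degrading neprilysin gene Mme, and the receptor-coupled signalling genes Gnaq, Gna11 and Plcb1 to Plcb4. Of these, 0 lay at an up region and 0 at a down region, by the authors' names and by RefSeq positions within 5 kb. Up regions were 0.438% and all changed regions 0.641% of the regions tested, so a count of 0 in a list this short is no result about the pathway. These shares are per tested region and the count is per gene, and a long gene can span many tested regions. The shares are therefore only a rough guide to the background for genes. The closest were Plcb3, 149 kb from an up region at Macrod1, and Plcb4, 165 kb from an up region at Pak5. Ednra, the receptor that prefers endothelins 1 and 2, lay 3.29 Mb from the nearest changed region, and Ednrb, the receptor that binds all 3 peptides, lay 33.2 Mb from it. Ece1 lay 477 kb from the nearest. The table holds only regions at FDR 0.05 or lower from the authors' single analysis, so these genes may have smaller changes or none, and the number with an unadjusted p below 0.05 cannot be had from it.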

How the data were processed

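H3K27me3 chromatin immunoprecipitation and sequencing was done on 4 control and 4 DKO samples, grouped by sample title. Formaldehyde-fixed chromatin was cut with micrococcal nuclease, per the labels' protocols. The submitters' processing notes name build mm10, the aligner Bowtie 0.12.7, the peak caller SICER 1.0.3 and edgeR, beside SAMtools 1.11, Picard 1.141 and FastQC 0.10.1. Their settings are stated in no source used here. The authors deposited 1 table of regions, whose headers are those of csaw, with a log2 fold change for a representative and a best window, a p-value and FDR, and counts of windows. Columns of per-sample values number 0, so nothing was refitted and the replicate spread cannot be seen.

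Regions naming Edn1, Edn2 or Edn3 in any annotation field were taken, with regions within 100 kb. The letters P and E were read as promoter and exon. The number of regions tested was recovered from the authors' p-values and FDR by the Benjamini-Hochberg formula, to a relative difference of 5.7e-15, and the recovery was tested on simulated data. Gene positions and promoters came from RefSeq (GRCm38.p6), in which all 3 genes matched. Python 3.11.15 was used. No tests were run. The members and lists were chosen with earlier results of these data known. Named genes were those at the member and context regions, the pathway list, and the 3 regions on each side of Edn2 by log2 fold change. Genes next to the regions, the longer runs and the next regions were named after their values were seen.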

Additional observations from a re-analysis of the deposited data

How the results depend on the processing

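With an FDR limit of 0.01, 2 of the 4 regions naming an endothelin gene were left, both at Edn2, and a minimum absolute log2 change of 1 also left 2, again both at Edn2. The Edn1 log2 fold change was 0.84 with the best window, against 0.96, in the authors' deposited table. These 3 of the 12 alternatives moved a value, counts being taken as moved beyond 1.5 times and a fold change at any difference, since it has no error. In the other 9, overlap only gave 3 regions, the Edn2 rank was 6 by the best window, the Edn2 and Edn3 fold changes had the same value in both windows, context of 50 kb or 1 Mb held 1 region, and the pathway count was 0. No paired analysis was possible because values per sample are lacking from the table, and leaving out each replicate was not possible for the same reason. Depth is unknown and limits each value to an unknown degree.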

Other observations

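The index of the representative windows limits where those windows can lie at Edn2. It does not place the change itself, since 170 of 176 windows of the first region were counted as up. In the table, regions of 1 window were 1.0 or 2.0 kb wide, all 3 of the 2.0 kb ones had a lower index than the 12 of 1.0 kb, and no region held more windows than 1.0 kb windows every 250 bp with 2 kb windows every 500 bp would give (17 held exactly as many). This layout is read from the values and is not stated by the authors. The representative windows of the first and second Edn2 regions have indices 18 apart and both fall in the 2 kb set. With no window absent between them, they would start 9 kb apart, and the first would start between 120161501 and 120170001, inside Edn2 or just beyond it, after the gene start at 120161206. The regions lack 4 and 21 windows of the layout. If all of these lay between the representative windows, the distance would be 21.5 kb and the earliest start 120149001, which is before the gene start, so the position relative to the start is not settled.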
